A study of Homo sapiens with 4 samples.

Results

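Kinesins are motor proteins that walk along or take apart microtubules, the hollow polymers built from alpha and beta tubulin. One branch of the superfamily, the mitotic kinesins, assembles the spindle, moves chromosomes and drives the abscission of daughter cells, and its genes are typically transcribed towards the end of the cell cycle. A second branch carries vesicles, mitochondria and ciliary cargo, often with the help of kinesin light chains, and is active throughout the cycle. Tubulin itself is encoded by several isotype genes, and gamma tubulin starts new microtubules.

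The 63 kinesin, kinesin light chain and tubulin genes described here were chosen by their symbols among the 19626 genes in the deposited tables. By known function they comprised 13 mitotic kinesins, 17 transport kinesins, 4 light chains, 8 other kinesins, 7 alpha tubulins, 10 beta tubulins and 4 gamma, delta and epsilon tubulins. They were read in RNA-seq libraries of ES-2 cells, an established ovarian cancer line labelled as clear cell carcinoma that carries the endogenous YAP1-MAML2 (YM) fusion. Both groups received pLKO.1 lentivirus for 8 h on consecutive days, with a nontargeting shRNA in the control (shCtl, n = 2) and an shRNA against MAML2 in the depleted cells (shM2-3, n = 2), and RNA was taken 96 h after the first infection, by the labels; the study's methods give a different infection schedule and time. Since shM2-3 targets both MAML2 and the fusion, depletion of either transcript cannot be told apart. A single cell line and a single MAML2 hairpin were sequenced.

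The libraries held between 20051083 and 23978660 estimated counts. For the targeted gene, MAML2, the control libraries gave 1436 and 1402 counts and the depleted ones 634 and 553. Among epithelial and Muellerian markers, the keratins KRT7, KRT8 and KRT18 were expressed and fell with depletion, by 1.26, 1.22 and 0.68 on the log2 scale, whereas EPCAM, PAX8 and NAPSA, which mark ovarian epithelium or clear cell carcinoma, stayed at 22 counts or fewer in every library. The labels call the replicates biological without naming separate cultures, so p-values measure the spread between these libraries only, and every SD is taken over 2 values.

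Of the 63 genes, 45 passed the filter on low values (RPKM, the authors' read number scaled to gene length and mapped reads, above 1 in at least 1 library) and were tested with edgeR's quasi-likelihood test across all 12157 such genes. "Fell" and "rose" mean that the Benjamini-Hochberg adjusted p did not exceed 0.05, and "called" adds a fold change of 2 or more. In shM2-3 cells, 20 of the 45 genes fell and 14 rose, against a background of 36.4% of all tested genes that fell and 36.3% that rose (72.7% in either direction). At the fold change limit, 3 were called lower (KIF20A, KIF2C and KLC3) and 2 called higher (TUBA1A and KIF3B), where the background was 8.93% lower and 9.24% higher. The median log2 fold change was -0.14 over the 45 genes and -0.0037 over all tested genes. As a set, then, the family moved about as often as genes at large, and the contrast lay between its classes.

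**Figure D1:**
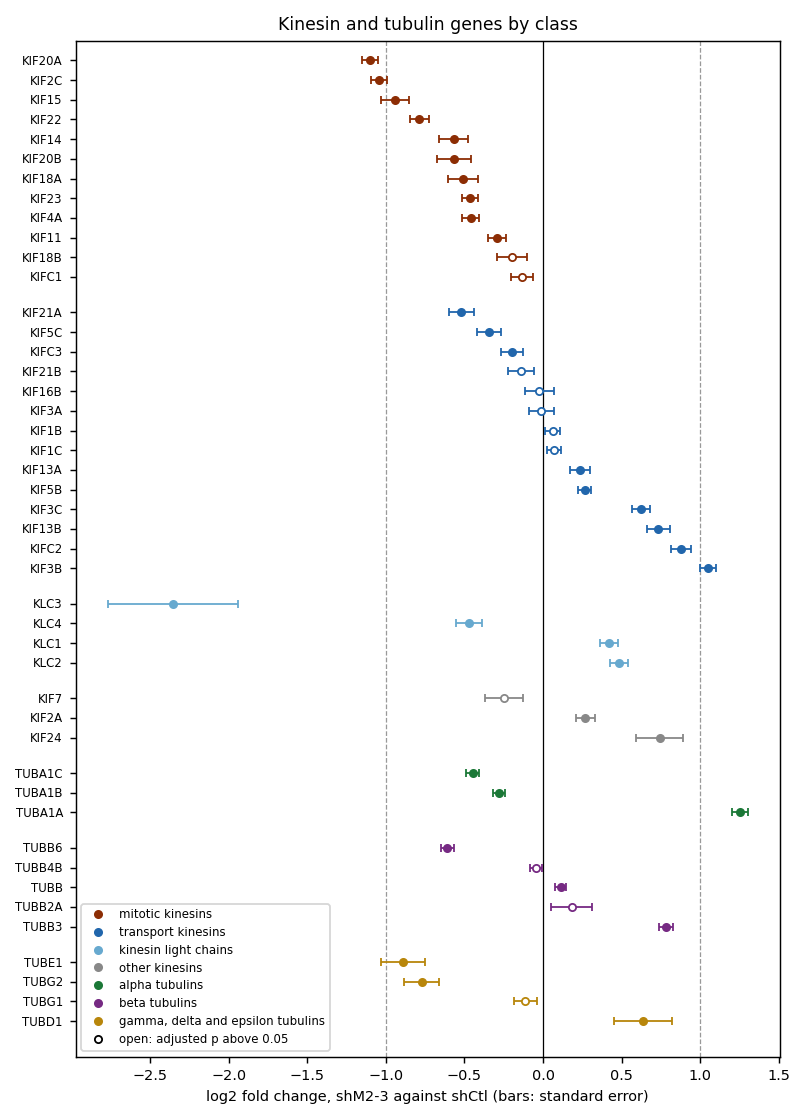
Log2 fold change of each tested gene (horizontal axis, shM2-3 against shCtl) with its standard error as a bar, grouped and coloured by class; filled points fell or rose by the test, open points did not pass it, and dashed lines mark a fold change of 2. All 12 mitotic kinesins lie below 0, while the transport kinesins run from -0.52 to 1.05 and TUBA1A stands at 1.25.

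Mitotic kinesins were lower in YM/MAML2-depleted cells. Of the 12 tested, 10 fell (background 36.4%) and none rose (background 36.3%). Their median was -0.54 on the log2 scale (range -1.10 to -0.13). The count depends on the class list, which was drawn up with earlier results of these data known. KIF2A, a depolymerase of spindle poles and neurites placed with the other kinesins, rose by 0.27. In each of the 12, both shM2-3 libraries had a lower RPKM than both shCtl libraries, a pattern seen in 47.1% of all tested genes. Summed over the 13 mitotic kinesins, the level was 219 and 216 RPKM in shCtl and 136 and 133 in shM2-3, so that 61.8% remained. The RPKM sum over all 19626 genes was also lower, at 324319 and 325563 in shCtl and 287746 and 295653 in shM2-3. Sums of RPKM here and below are to be read against that total. In bulk RNA, fewer cells at the stage that expresses mitotic kinesins cannot be told apart from less RNA per cell.

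Because the mitotic kinesins moved together, their RefSeq promoters (build GRCh38.p14, from 250 bases before the start of the gene to 50 after it) were read for short elements that recur in late cell cycle genes. All 12 tested mitotic kinesins had a promoter entry. The cell cycle homology region, a binding element of the MuvB complex, was searched as TTTGAA and as TTCGAA on both strands. One or the other was present in 10 of the 12 mitotic kinesins, in 1 of 10 transport kinesins (KIF5B) and in 15.3% of the 9571 tested genes with an entry. It was also present in 1 of 3 other kinesins (KIF24), 1 of 3 alpha tubulins (TUBA1C) and 2 of 5 beta tubulins (TUBB3 and TUBB4B). Of these, KIF24 and TUBB3 rose by 0.74 and 0.78, TUBA1C fell by 0.45 and TUBB4B did not pass the test. Neither the light chains nor the gamma, delta and epsilon tubulins with an entry held it. Over all 35116 promoters, 15.2% held TTTGAA and 1.45% held TTCGAA. For the mitotic kinesins, the stretches that hold the element nearest to the start are shown 5′ to 3′ on the strand of the gene, with the element or its reverse complement in capitals:
KIF11 (chr10:92593092-92593117, plus strand): ctgtctctttTTCAAAttgaggcgcc
KIF14 (chr1:200620735-200620760, minus strand): ggggcgcccaTTCAAAttgcggcctt
KIF15 (chr3:44761749-44761774, plus strand): aagcgccaaaTTCAAAtttgcggcca
KIF18A (chr11:28108151-28108176, minus strand): gtggcttgggTTTGAAtattgtggtt
KIF18B (chr17:44947756-44947781, minus strand): gcccggctaaTTTGAAcgcaaggcgc
KIF20B (chr10:89701604-89701629, plus strand): gccgccattgTTTGAAtttgaaaacg
KIF22 (chr16:29790714-29790739, plus strand): caccggggaaTTCGAAtgggagaggc
KIF23 (chr15:69414284-69414309, plus strand): gattggcccgTTTGAAatgcgccagg
KIF4A (chrX:70290060-70290085, plus strand): ccgggacggaTTTGAAacttggcggt
KIFC1 (chr6:33391817-33391842, plus strand): gccgttggaaTTCAAAagtggcgggt
In these stretches the element began between 55 bases before the start (KIF23) and 25 bases after it (KIF20B). The single transport kinesin with the element carried it farther upstream, beginning 140 bases before the start of KIF5B.

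KIF20A and KIF2C, the 2 mitotic kinesins called lower, held neither form of the element in this window. KIF18B and KIFC1, the mitotic kinesins that did not pass the test, both held it. The promoter of KIF20A held the box bound by NF-Y, searched as CCAAT on both strands, at 2 places, and that of KIF2C held the letters of a TEAD site, searched as CATTCC on both strands. Both are shown because these genes fell most:
KIF20A, first box (chr5:138179008-138179032, plus strand): ccttacgcggATTGGtagctgcagg
KIF20A, second box (chr5:138179035-138179059, plus strand): tccctatctgATTGGccgaacgaac
KIF2C (chr1:44739791-44739816, plus strand): cggggacagcGGAATGacgttttaag
CCAAT was found in 10 of 12 mitotic kinesins and in 4 of 10 transport kinesins, against 43.8% of tested genes and 34.6% of all promoters. Among tubulins it was found in 2 of 3 alpha, 4 of 5 beta and 2 of 4 gamma, delta and epsilon genes. CATTCC was found in 2 of 12 mitotic kinesins (KIF22 and KIF2C) and 3 of 10 transport kinesins (KIF1B, KIF3A and KIF3B), against 15.0% of tested genes and 14.0% of all promoters. KIF3B was called higher, and KIF1B and KIF3A did not pass the test. Outside these classes CATTCC was found in KLC3, TUBB4B, TUBB6 and TUBE1. Among E2F site forms, searched on both strands, TTGGCGC was present in KIF15, KIF18A and KIF18B (6.25% of tested genes and 3.04% of all promoters), and TTCCCGC in none of the 12 (12.8% of tested genes and 6.55% of all promoters). A match is a run of letters and does not show binding in these cells.

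KIF20A (chromosome 5 of hg38, 138178719 to 138187723), the motor that brings Aurora B to the central spindle for cytokinesis, read 32.4 and 33.6 RPKM in shCtl and 14.5 and 14.8 in shM2-3. It was the lowest of the class, 2.15-fold lower, at -1.10 on the log2 scale (standard error, SE, 0.0527, edgeR quasi-likelihood adjusted p = 3.91e-10). KIF2C (chromosome 1, 44739818 to 44767767), the depolymerase that corrects faulty attachments at kinetochores, read 31.3 and 32.6 RPKM in shCtl and 14.8 and 14.7 in shM2-3, a log2 fold change of -1.05 (SE 0.0516). These 2 genes were the most abundant mitotic kinesins of control cells, and in neither did the groups overlap (background 47.1% below). KIF15, which helps to hold the bipolar spindle, had 7.01 and 6.98 RPKM in shCtl against 3.71 and 3.23 in shM2-3. Its log2 fold change of -0.94 (SE 0.0887) lay just short of the fold change limit and reached -1.04, past it, without shM2-3 replicate 1. KIF22, a chromosome arm motor, fell by 0.79 on the log2 scale.

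Smaller decreases followed. KIF14 and KIF20B, both cytokinesis motors, fell by 0.57 and 0.56. KIF18A, which damps chromosome movement at plus ends, fell by 0.51, and KIF23, the motor subunit of centralspindlin, fell by 0.47. KIF23 read 22.9 and 23.5 RPKM in shCtl and 16.3 and 15.7 in shM2-3, with no overlap (background 47.1% below). KIF4A, a chromosome-bound motor that sets the length of the central spindle, fell by 0.46.
KIF11 (Eg5), the motor that pushes spindle poles apart, fell least of the 10: its RPKM was 16.7 and 15.7 in shCtl and 13.3 and 12.1 in shM2-3, and its log2 fold change was -0.29 (SE 0.0589, edgeR quasi-likelihood adjusted p = 0.000536). The shCtl replicates of KIF18A (17.1 and 14.0 RPKM) and KIF20B (9.53 and 7.66) stood further apart than those of KIF23.

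KIF18B and KIFC1 did not pass the test. KIF18B, which trims astral microtubules, had 4.60 and 5.13 RPKM in shCtl against 4.18 and 3.94 in shM2-3, a log2 fold change of -0.20 (SE 0.0957, edgeR quasi-likelihood adjusted p = 0.0808). KIFC1, a minus-end motor that clusters spindle poles, had the log2 fold change nearest to 0 in the class, with 19.3 and 20.2 RPKM in shCtl and 16.4 and 18.1 in shM2-3 and a log2 fold change of -0.13 (SE 0.0707, edgeR quasi-likelihood adjusted p = 0.107). Both values are near the limit: scaled by total counts alone, edgeR's adjusted p was 0.0480 for KIF18B and 0.0449 for KIFC1. KIF4B, an intronless copy of KIF4A, had at most 19 counts and was not tested.

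**Figure D2:**
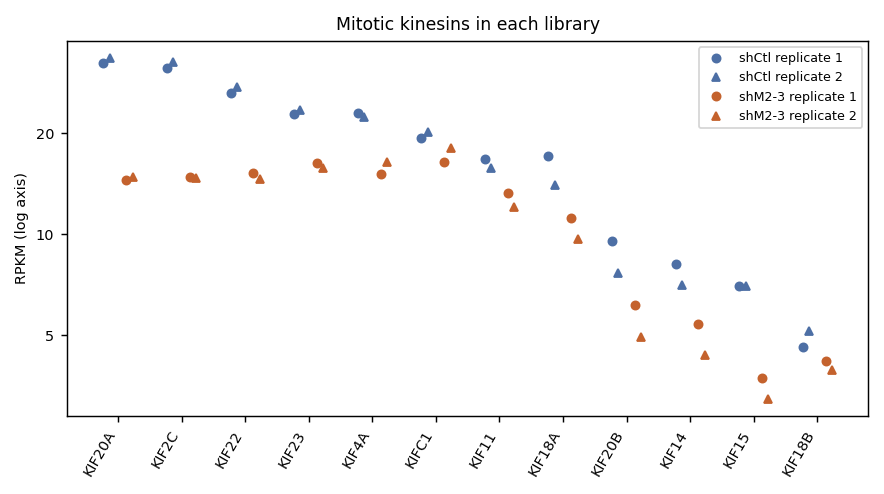
RPKM (log axis) of the 12 tested mitotic kinesins in each of the 4 libraries, ordered by the mean of the shCtl libraries; circles are replicate 1 and triangles replicate 2. For every gene the shM2-3 points lie below the shCtl points, with the widest gaps for KIF20A and KIF2C and the narrowest for KIFC1 and KIF18B.

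Partners of these motors were also mostly lower. Among 12 proteins that bind or regulate mitotic kinesins, 11 fell and 1 rose (backgrounds 36.4% and 36.3% here and for the lists that follow), with a median log2 fold change of -0.79. Those called lower (background 8.93%) were AURKA and AURKB (mitotic kinases), CENPE (a kinetochore kinesin whose symbol lies outside the symbol rule) and HMMR (a spindle pole protein). AURKA had the lowest value at -1.39, and KIFBP, which binds and blocks several kinesin motor domains, was the only one to rise, by 0.18 (adjusted p = 0.05, at the limit, in edgeR's quasi-likelihood test). All 12 genes of a G2/M marker list fell, with a median of -1.04, and their summed level went from 539 and 543 RPKM in shCtl to 247 and 242 in shM2-3. AURKA stands in both lists. In a list of 12 S phase genes, 5 fell and 3 rose, with a median of -0.23. The part of a smaller G2/M fraction in the fall of the mitotic kinesins was not tested.

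Transport kinesins showed no common direction. Of 14 tested, 6 rose (background 36.3%), 3 fell (background 36.4%) and 5 did not pass the test, with a median log2 fold change of 0.06. On the log2(RPKM + 0.1) and log2(RPKM + 1) scales that median was -0.0018 and -0.0015, so its sign is not fixed. The libraries of the groups did not overlap in RPKM for 10 of the 14, which were 6 above (background 38.9%) and 4 below (background 47.1%). Summed over the 17 genes of the class, the level was 140 and 138 RPKM in shCtl and 162 and 161 in shM2-3. These values also depend on the class list, which was drawn up with earlier results of these data known and includes KIF21A.

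The heterotrimeric kinesin-2 motors, which drive transport in cilia and of membranes, gave the widest rise. KIF3B (chromosome 20 of hg38, 32277651 to 32335011) read 8.58 and 8.62 RPKM in shCtl and 17.1 and 16.9 in shM2-3, and its log2 fold change was 1.05 (SE 0.0496, edgeR quasi-likelihood adjusted p = 3.47e-10). On the RPKM scales it fell just short of the limit, at 0.98 with a pseudocount of 0.1 and 0.91 with a pseudocount of 1. KIF3C, its paralog, rose by 0.62, from 9.27 and 9.47 RPKM to 13.3 and 14.3. KIF3A, with which either of them pairs, read 5.64 and 5.04 RPKM in shCtl and 5.13 and 5.00 in shM2-3, and its groups overlapped (log2 fold change -0.01, SE 0.0780). The RNA of the motor subunits was therefore no longer in the same proportion: KIF3A made up 22.9% ± 1.59 of the summed kinesin-2 RPKM of control cells and 14.1% ± 0.430 in depleted cells (SD, n = 2 each), while the sum reached 154% of the control level.

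Kinesin-1, the main carrier of organelles towards the cell periphery, was the most abundant transport motor. KIF5B, its ubiquitous heavy chain, read 39.4 RPKM in each shCtl library and 46.5 and 44.1 in shM2-3, a log2 fold change of 0.27 (SE 0.0414). KIF5C, a paralog best known from neurons, went the other way, from 5.28 and 5.23 RPKM to 4.23 and 3.69, and fell by 0.34. The remaining heavy chain gene, KIF5A, had 3 counts at most. The share of KIF5B in the summed heavy chain RPKM went from 88.2% ± 0.0772 to 92.0% ± 0.402 (SD, n = 2 each).

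The light chains, which tie kinesin-1 to cargo, split in pairs. KLC1, the most abundant, read 20.2 and 19.2 RPKM in shCtl and 24.5 and 25.9 in shM2-3 and rose by 0.42. KLC2 read 14.8 and 15.7 RPKM in shCtl and 20.9 and 19.7 in shM2-3 and rose by 0.48. KLC4 fell by 0.47, from 10.2 and 9.78 RPKM to 7.16 and 6.58. The least abundant, KLC3, a light chain known from spermatids (chromosome 19 of hg38, 45333434 to 45351520), went from 58 and 59 counts to 12 and 13, and was called 5.11-fold lower (log2 fold change -2.35, SE 0.416, edgeR quasi-likelihood adjusted p = 0.000183). Its groups do not overlap (background 47.1% below), but its level was low, at 1.40 and 1.39 RPKM in shCtl, and with a pseudocount of 1 the change was -0.93. On the opposite strand ERCC2 shares 535 exonic bases with KLC3, CUL7 shares 486 with KLC4, and XRCC3 shares 29.9% of the exonic bases of KLC1. Libraries without strand do not separate such reads. Of the 150-base stretches of the KLC1 transcript, 62.6% also occur in an annotated gene on the same strand.

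Among the remaining transport motors, KIFC2 and KIF13B rose by 0.88 and 0.73, and KIF13A, which carries recycling endosomes, rose by 0.24, although it did not pass in limma on log2(RPKM + 0.1) (adjusted p = 0.0854) or log2(RPKM + 1) (adjusted p = 0.0874). KIFC2 read 9.75 and 9.20 RPKM in shCtl and 16.8 and 16.5 in shM2-3, and KIF13B 4.41 and 3.83 RPKM in shCtl and 6.74 and 6.35 in shM2-3. For both genes the shM2-3 libraries lay above the shCtl libraries, as in 38.9% of all tested genes. KIF21A, which restrains microtubule growth near the cell cortex, had the lowest value of the class, from 7.86 and 7.36 RPKM in shCtl to 5.43 and 4.71 in shM2-3 (log2 fold change -0.52, SE 0.0776). KIFC3 fell by 0.20 (edgeR quasi-likelihood adjusted p = 0.0204), but did not pass under DESeq2 (0.0852) or without shCtl replicate 2 (edgeR adjusted p = 0.138) or shM2-3 replicate 1 (edgeR adjusted p = 0.129). KIF1B, KIF1C, KIF16B and KIF21B, with log2 fold changes of 0.06, 0.07, -0.02 and -0.14, did not pass the test. KIF1C, at 23.4 ± 0.281 RPKM in control and 23.5 ± 0.803 in depleted cells (SD, n = 2 each), is the second most abundant transport kinesin, and the SE of its change was 0.0444.

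**Figure D3:**
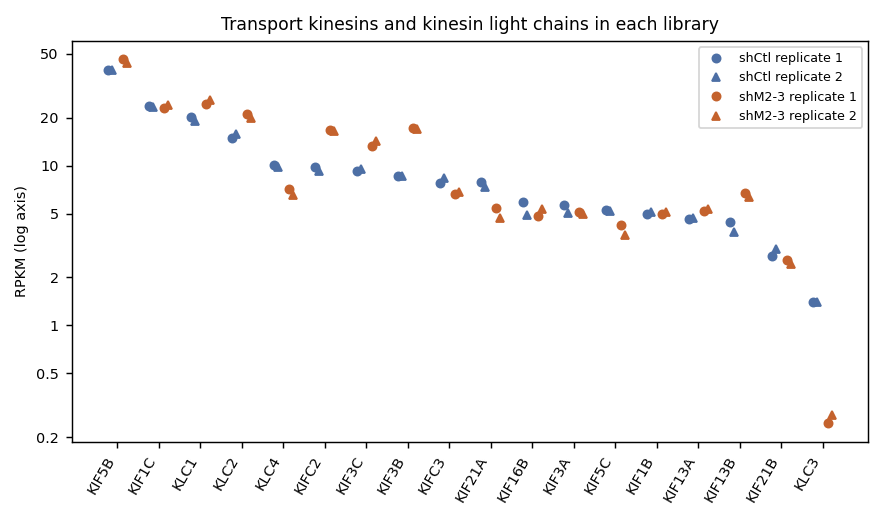
RPKM (log axis) of the 14 tested transport kinesins and the 4 kinesin light chains in each of the 4 libraries, ordered by the mean of the shCtl libraries; circles are replicate 1 and triangles replicate 2. KIF3B, KIFC2 and KIF3C stand higher in shM2-3, KLC3, KLC4 and KIF21A lower, and KIF1B, KIF1C, KIF3A and KIF16B overlap between the groups.

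Of 12 tested adaptors that link kinesins to their cargo, 5 fell and 5 rose. FEZ2, a kinesin-1 adaptor, was the only one called (log2 fold change -1.25), and TRAK1, which ties kinesin-1 to mitochondria, had the highest value at 0.42. The mitochondrial partner of TRAK1, RHOT1, fell by 0.82. The counts were close to the background in both directions.

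Of the 8 kinesins outside these classes, 3 passed the filter on low values. KIF2A, a depolymerase of spindle poles and neurites and a paralog of KIF2C, read 10.3 and 10.6 RPKM in shCtl and 12.2 and 11.9 in shM2-3 and rose by 0.27, opposite to KIF2C. DIMT1 shares 18.7% of the exonic bases of KIF2A on the opposite strand. KIF24, which restrains cilium formation at the mother centriole, went from 155 and 161 counts to 337 and 249 and rose by 0.74 (SE 0.151). KIF7, a Hedgehog regulator at the ciliary tip, had 2.89 and 2.87 RPKM in shCtl and 2.47 and 2.15 in shM2-3 and did not pass the test (log2 fold change -0.25, edgeR quasi-likelihood adjusted p = 0.0810).

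The alpha tubulin isotypes were redistributed. TUBA1A (chromosome 12 of hg38, 49184686 to 49189080), the isotype best known from developing neurons, read 44.3 and 45.5 RPKM in shCtl and 98.4 and 105.9 in shM2-3. It was called 2.38-fold higher (log2 fold change 1.25, SE 0.0489, edgeR quasi-likelihood adjusted p = 4.67e-11) and had the highest log2 fold change of the 45 genes. Its 2 broadly expressed neighbours went down. TUBA1B (chromosome 12, 49127782 to 49131397), the main isotype, read 473 and 490.3 RPKM in shCtl and 374 and 385 in shM2-3 and fell by 0.28 (SE 0.0379). TUBA1C, with 117 and 120.4 RPKM in shCtl and 82.6 and 83.6 in shM2-3, fell by 0.45. None of the 3 genes overlapped between groups, where 47.1% of all tested genes lay wholly below and 38.9% wholly above in shM2-3.
By RPKM, TUBA1A supplied 6.95% ± 0.0369 of the alpha tubulin RNA of control cells and 18.1% ± 0.491 in depleted cells (SD, n = 2 each). The share of TUBA1B went from 74.6% ± 0.113 to 67.1% ± 0.276 and that of TUBA1C from 18.4% ± 0.0610 to 14.7% ± 0.238 (SD, n = 2 each). With 2 libraries against 2, an exact permutation test of a share cannot go below a two-sided p of 0.333, and none was run. The sum over all alpha isotypes was 635 and 657 RPKM in shCtl and 555 and 575 in shM2-3, 87.6% of the control mean. Over all genes the RPKM sum also went down, from 324319 and 325563 to 287746 and 295653. A lower sum was therefore not particular to alpha tubulin.

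The 3 genes are close copies. In GENCODE release 44, 19.1% of the 150-base stretches of the TUBA1B transcript, 8.01% of those of TUBA1A and 7.22% of those of TUBA1C also occur in a transcript of another gene, and reads there could be split or dropped. TUBA1A and TUBA1C also share 345 exonic bases on opposite strands. The remaining alpha genes were close to silent, since TUBA3D, TUBA3E, TUBA4A and TUBA8 had an RPKM of 0.481 or less in every library.

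Beta tubulin changed in makeup but little in summed RPKM. TUBB (chromosome 6, 30717435 to 30725538), the main isotype, read 460 and 459 RPKM in shCtl and 468 and 479 in shM2-3. Its log2 fold change was 0.11 (SE 0.0340, edgeR quasi-likelihood adjusted p = 0.00962), and on the log2(RPKM + 1) scale it was 0.04 with an adjusted p of 0.271 from limma. TUBB4B, the second most abundant, had 159 RPKM in each shCtl library and 148 and 147 in shM2-3 and did not pass the test (log2 fold change -0.04, SE 0.0397), although on the log2(RPKM + 1) scale limma gave -0.11 with an adjusted p of 0.0208. Neither change turned its sign under any alternative tried, but whether it passed the test depended on the scale and, for TUBB, also on the libraries included. Without shCtl replicate 2 the log2 fold change of TUBB was 0.10. TUBB2A (log2 fold change 0.18, SE 0.130) did not pass either.

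Minor beta isotypes TUBB3 and TUBB6 moved in opposite directions. TUBB3 (chromosome 16, 89921392 to 89938761), the isotype used as a neuronal marker and known from taxane resistance, read 52.3 and 55.2 RPKM in shCtl and 88.1 and 88.8 in shM2-3 and rose 1.72-fold, a log2 fold change of 0.78 (SE 0.0446). TUBB6 went from 73.8 and 74.7 RPKM to 45.6 and 47.4 and fell by 0.61 (SE 0.0428). TUBB6 was the more abundant of the pair in control cells, and TUBB3 was in depleted cells. In shares of the summed beta tubulin RPKM, TUBB3 went from 7.13% ± 0.252 to 11.6% ± 0.0635, TUBB6 from 9.86% ± 0.0650 to 6.09% ± 0.0928, and TUBB from 61.0% ± 0.244 to 62.1% ± 0.348 (SD, n = 2 each). The sum was 752 and 754 RPKM in shCtl and 757 and 769 in shM2-3, while the RPKM sum over all genes was lower in shM2-3.
TUBB3 shares 1584 exonic bases with an annotated read-through gene on the same strand. Of its 150-base stretches, 92.3% also occur in other genes, which are that gene, TUBB2A and TUBB2B. AFG3L2 shares 21.2% of the exonic bases of TUBB6 on the opposite strand. TUBB2A shares 48.7% of its 150-base stretches with TUBB2B and other copies. TUBB1, TUBB2B, TUBB4A, TUBB8 and TUBB8B stayed under an RPKM of 1 in every library.

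**Figure D4:**
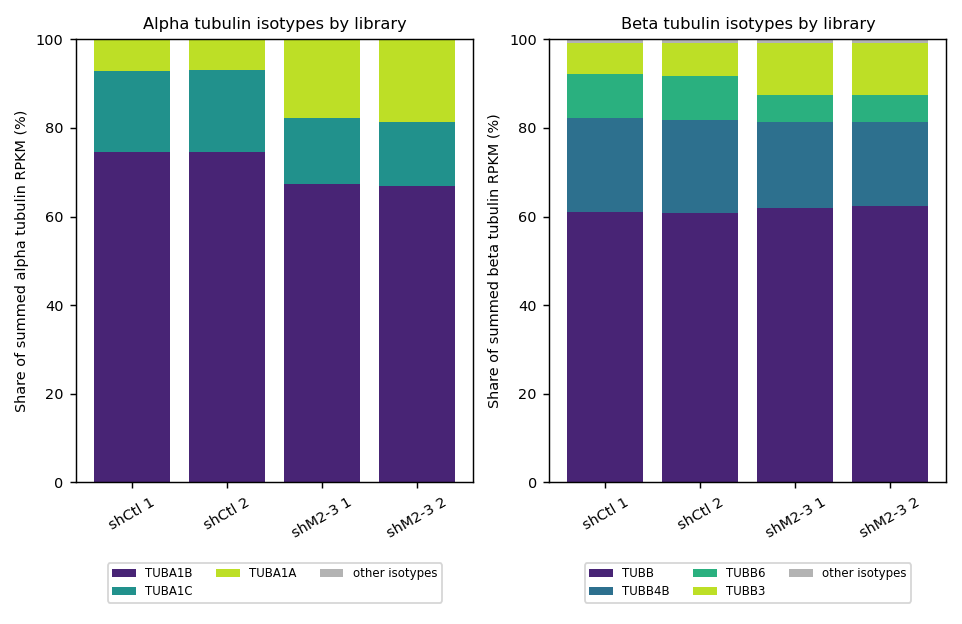
Share of each isotype (vertical axis, percent) in the summed RPKM of alpha tubulin (left) and beta tubulin (right) in each of the 4 libraries; each bar stacks to 100%. TUBA1A widens from 6.95% to 18.1% of alpha tubulin, and TUBB3 from 7.13% to 11.6% of beta tubulin, while TUBB6 narrows from 9.86% to 6.09%.

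TUBA1A, TUBB3 and KIF5C are often read as neuronal genes, so a list of 8 neuron markers was examined. SNAP25 and NEFL had an RPKM above 1, and both rose, by 0.62 and 0.54. The list summed to 13.3 and 13.1 RPKM in shCtl and 19.4 and 18.3 in shM2-3. RBFOX3, ELAVL3, ELAVL4 and GAP43 had 12 counts or fewer in every library. All libraries came from a single cultured line, and whether the marker and tubulin changes are related was not tested. Of 8 markers of ciliated cells, 1 (DNAH5) passed the filter on low values, and FOXJ1, their master regulator, had at most 1 count. COL1A1, the 1 of 6 fibroblast markers to pass the filter, rose by 1.41. Of the leukocyte markers, LYZ and CD68 passed the filter. CD68 fell by 0.51, and LYZ, at 33 and 15 control counts against 100 and 5 after depletion, did not pass the test. CD14 lay under the filter and was not tested. It was higher in the depleted libraries, which held 42 and 37 estimated counts against 3 and 4 for the controls. PTPRC and CD3E stayed at 3 or fewer throughout.

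Gamma, delta and epsilon tubulins mark centrosomes and centrioles. TUBG1 (chromosome 17, 42609641 to 42615238), the main gamma tubulin, read 20.9 and 21.1 RPKM in shCtl and 18.9 and 18.3 in shM2-3 and did not pass the test (log2 fold change -0.11, SE 0.0716), although limma gave an adjusted p of 0.0128 on log2(RPKM + 0.1) and 0.0122 on log2(RPKM + 1). Its paralog TUBG2 had 10.3 and 11.8 RPKM in shCtl and 5.93 and 6.47 in shM2-3 and fell by 0.77. TUBG1 thus made up 65.5% ± 1.93 of the gamma tubulin RPKM in shCtl and 75.0% ± 1.57 in shM2-3 (SD, n = 2 each); 6.24% of the 150-base stretches of TUBG1 recur in TUBG2. TUBE1 had the lowest value here, from 7.25 and 6.65 RPKM in shCtl to 4.06 and 3.08 in shM2-3 (log2 fold change -0.89, SE 0.141), and it passed the fold change limit, at -1.10, without shM2-3 replicate 1. TUBD1, at 101 and 122 counts before and 220 and 164 after depletion, rose by 0.64 (SE 0.186). It did not pass without shCtl replicate 1 (edgeR adjusted p = 0.0517) or shM2-3 replicate 1 (edgeR adjusted p = 0.0826).

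Among 16 listed genes of tubulin folding and microtubule nucleation, 10 fell and 2 rose (backgrounds 36.4% and 36.3%), with a median log2 fold change of -0.23. Among ring complex subunits, TUBGCP4 and TUBGCP5 fell by 0.91 and 0.88, and the small subunits MZT1, MZT2A and MZT2B fell by 0.85, 0.99 and 0.74. TUBGCP2 fell by 0.15, while TUBGCP3 and TUBGCP6, at -0.10 and 0.12, did not pass the test. The folding cofactors TBCA, TBCD and TBCE fell, by 0.58, 0.28 and 0.50, whereas TBCC rose by 0.86 and TBCEL, a cofactor E homolog that destabilises tubulin, was called higher at 1.16. TBCB, at -0.11, did not pass.

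The 18 genes that did not pass the filter reached an RPKM of at most 0.944. They were KIF4B among the mitotic kinesins, KIF1A, KIF5A and KIF17 among the transport kinesins, KIF6, KIF9, KIF25, KIF26B and KIF27 among the other kinesins, and the 9 alpha and beta tubulins named above. Several of these are motors of cilia, flagella or neurons. KIF9, at 79 and 81 control counts against 43 and 50 after depletion, came nearest to the limit.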

How the data were processed

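RNA from 4 ES-2 libraries (2 shCtl, 2 shM2-3) was sequenced by the authors as non-strand-specific paired ends of 150 bases. The authors aligned reads to hg38 with HISAT2 2.0.4, removed ambiguous and low-quality alignments, and quantified RefSeq transcripts in Partek 7.18. The deposited table holds estimated counts without normalization, of which 42.6% to 48.8% per library were whole numbers (within 1e-06). The deposited RPKM values are scaled by the authors for gene length and mapped reads.

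Samples were grouped by their titles. The 12157 of 19626 genes whose RPKM exceeded 1 in any library entered edgeR 4.0.16 (R 4.3.3) as rounded counts, using TMM factors, glmQLFit and glmQLFTest without a block, and p-values were Benjamini-Hochberg adjusted over all of them. The standard error is the log2 fold change divided by the square root of F. The procedure was tested on simulated data. Levels are RPKM. Library totals of 20051083 to 23978660 counts limit the precision of genes with few counts.

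Members, classes and gene lists were chosen with earlier results of these data known, so lists are described by counts and medians and were not tested as sets. Every called member, the extremes and the most abundant member of each class, and KIF2C, KIF11, KIF20A, KIF23, KIF5B, KLC1, TUBA1B, TUBB, TUBB3 and TUBG1 were given in full; other genes named were chosen after values were seen. Promoters came from RefSeq (54 of 63 genes matched), and positions, overlaps and shared stretches (of 150 bases) from GENCODE release 44 on hg38. Protein sequences were not used here. Alternatives were DESeq2 1.42.0, limma 3.58.1 on log2(RPKM + 0.1) and log2(RPKM + 1), total counts, other filters and fold limits, a block for replicate number, and omission of single libraries.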

Additional observations from a re-analysis of the deposited data

How the results depend on the processing

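DESeq2, edgeR with the replicate block, and each library left out kept 2 mitotic kinesins called lower, except that leaving out libraries gave 2 to 3. The replicate numbers share only a number: the deviations of same-numbered libraries had a correlation of -0.03 over 12157 genes. With the replicate block the median log2 fold change of the mitotic kinesins was -0.54 against -0.54 without it, 1079 genes were called lower and 1123 higher over all genes, and no count among the classes changed. At a fold limit of 1.5, 2302 genes were called lower and 2296 higher, with 8 and 8 members, 4 mitotic kinesins lower, 4 transport kinesins higher, 1 light chain or other kinesin higher, and 1 alpha or beta tubulin lower and 2 higher. With no fold limit these were 4430 and 4414 genes, 20 and 14 members, 10 mitotic kinesins lower, 3 transport kinesins lower and 6 higher, 2 light chains or other kinesins lower and 4 higher, and 3 alpha or beta tubulins in each direction. With filterByExpr 5 members were called lower, 1 of them a transport kinesin and 1 an alpha or beta tubulin, and 2 alpha or beta tubulins were called higher, since more genes are tested. With no filter 4 members were called higher, 1 light chain or other kinesin and 2 alpha or beta tubulins among them, and 1 alpha or beta tubulin was called lower. In limma on log2(RPKM + 0.1) and on log2(RPKM + 1), 1 member and 0 transport kinesins were called higher. On the latter scale, which shrinks low genes, 596 genes were called higher over all genes and 0 light chains or other kinesins lower.
The transport kinesin median of 0.06 became -0.0018 on log2(RPKM + 0.1) and -0.0015 on log2(RPKM + 1). The alpha and beta tubulin median of 0.03 became -0.0023 with total counts, -0.033 on both RPKM scales and 0.080 with no filter, and ranged from 0.025 to 0.047 with a library left out. Members called lower ranged from 3 to 5 with a library left out, the 5 being without shM2-3 replicate 1. Of the genes that did not pass the test, KIF16B ranged from -0.16 to 0.12 and KIF3A from -0.096 to 0.075 with a library left out, and KIF1B was at -0.0050 and -0.0043 on the RPKM scales.
As shares of estimated counts in place of RPKM, the change in percentage points was 13.4 for TUBA1A, -6.98 for TUBA1B, -6.50 for TUBA1C, 2.10 for TUBB, 3.63 for TUBB3, -0.959 for TUBB4B and -4.76 for TUBB6, in each case in the direction of the RPKM shares. The median over all genes was -0.0037 in the main fit and -0.039 with total counts. On log2(RPKM + 0.1) and log2(RPKM + 1) it was -0.068 and -0.059. Total counts and the RPKM scales did not use TMM factors. These offsets were similar in size to the class medians that changed sign. The cause of the changes between scales was not tested.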

Other observations

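Enzymes that modify tubulin moved in both directions. Of 13 tested, 3 fell and 6 rose, at a median of 0.17 on the log2 scale. The backgrounds were 36.4% and 36.3%. TTLL12, an inactive member of the tubulin tyrosine ligase family, was called lower at -1.58, and AGTPBP1, which trims glutamate side chains, fell by 0.96. TTLL1, a polyglutamylase subunit, and VASH1, a carboxypeptidase that removes the terminal tyrosine of alpha tubulin, were called higher at 1.23 and 1.06.

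Among 15 tested microtubule-associated proteins, 5 fell and 6 rose. MAP7D3, a protein that recruits kinesin-1 to microtubules, had the lowest value, at -2.27 with a standard error of 0.0623, and was the only one of the list that was called. Its relative MAP7D1 had the highest value, at 0.72.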
